A study of Mus musculus with 8 samples.

Results

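Clec2d, Clec2e and Clec2h are C-type lectin-like genes of the mouse natural killer gene complex, and their transcripts were followed here in the colon of 8 mice on contrasting diets. The 3 genes were taken by name from the 19065 genes of the deposited matrices, and all 3 were present in every library. They gave 603 UMIs of Clec2d, 118 of Clec2e and 671 of Clec2h, spread over 697 of 8588 cell barcodes. A UMI is a molecular tag that counts 1 captured probe. The genes were chosen with their values by epithelial or other barcode and by diet in view, so those contrasts are described below and not tested.

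Fish oil/pectin mice and corn oil/cellulose mice, 4 of each, were C57BL/6 animals kept on their diet for 3 weeks, with no other treatment and no transgene named in the labels. The labels give no age and call the samples colonocytes, although the source was a section of the whole colon roll. From each block 2 sections of 50 µm were processed and profiled with the 10x Genomics Flex assay, in which probe pairs read out fixed RNA gene by gene. The series title places the diets in a study of ferroptosis and colon cancer risk.

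Clec2 proteins sit on the surface of cells and are read by NKR-P1 receptors on natural killer cells and other lymphocytes. Clec2d (also Clr-b or Ocil) is broadly expressed and is a ligand of the inhibitory receptor NKR-P1B, so that a cell that loses it can be recognised as altered. Clec2h (Clr-f) is found mainly in gut epithelium and is a ligand of NKR-P1G. Clec2e (Clr-a) is also known from intestinal epithelium.

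The 3 genes lie within 524150 bases of chromosome 6 in GRCm38, among NKR-P1 genes, and each has 5 exons in its first GENCODE transcript. Clec2h (ENSMUSG00000030364) runs on the plus strand at chr6:128662385-128677374, Clec2e (ENSMUSG00000030155) on the minus strand at chr6:129091998-129100913, and Clec2d (ENSMUSG00000030157) on the plus strand at chr6:129180615-129186534. A gap of 414623 bases separates Clec2h and Clec2e, whereas Clec2e and Clec2d are 79701 bases apart. The sequence just upstream of each gene is shown because it sets Clec2e and Clec2h apart from Clec2d. The windows come from the RefSeq promoter table (GRCm38.p6), end before the first annotated base, and are written in the direction of transcription. Capitals mark the bases of Clec2e and Clec2h that differ between these aligned windows.
Clec2e, chr6:129100918-129101153, minus strand: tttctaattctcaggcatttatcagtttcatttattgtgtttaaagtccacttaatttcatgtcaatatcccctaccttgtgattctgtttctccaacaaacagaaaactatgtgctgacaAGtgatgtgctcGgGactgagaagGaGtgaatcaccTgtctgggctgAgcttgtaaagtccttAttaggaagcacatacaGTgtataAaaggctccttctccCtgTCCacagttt
Clec2h, chr6:128662150-128662384, plus strand: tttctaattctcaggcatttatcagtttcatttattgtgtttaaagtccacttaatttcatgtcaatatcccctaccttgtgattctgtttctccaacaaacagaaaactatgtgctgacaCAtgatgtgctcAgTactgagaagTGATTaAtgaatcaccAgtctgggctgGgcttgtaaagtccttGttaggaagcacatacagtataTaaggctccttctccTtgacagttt
Clec2d, chr6:129180365-129180614, plus strand: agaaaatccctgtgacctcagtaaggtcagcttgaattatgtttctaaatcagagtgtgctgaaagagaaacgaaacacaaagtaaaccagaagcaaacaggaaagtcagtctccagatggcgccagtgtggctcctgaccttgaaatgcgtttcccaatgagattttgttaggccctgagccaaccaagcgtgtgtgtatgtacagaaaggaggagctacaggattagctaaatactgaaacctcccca

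Over these windows Clec2e and Clec2h were 91.7% identical, with 11 mismatched and 9 gapped bases, and shared 1 run of 121 identical bases. Clec2d had 46.9% identity to Clec2e and 47.9% to Clec2h, with no shared run longer than 8 bases. The letters AAAGTCCA, a core of HNF4 sites, occurred once in the Clec2e and once in the Clec2h window. They were not found in the Clec2d window. Of 32851 promoters in the same table, 1.01% held these letters on either strand in their 250 upstream bases. CAATAAA, a core of CDX sites, showed the same distribution, once in Clec2e, once in Clec2h and not in Clec2d, and was present in 4.20% of promoters. TATAAA occurred in the Clec2e window only among the 3 genes and in 12.4% of promoters. These letters were chosen after the windows had been read, and a match is a description of the sequence, not of binding.

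The coding sequences were also related, which bears on what a probe can tell apart. Clec2e and Clec2h shared 82.8% of their aligned coding bases, with a longest identical run of 39 bases. Clec2d shared 71.3% with Clec2e and 68.8% with Clec2h. Longer identical runs were found with relatives that were almost silent here, 61 bases between Clec2d and Clec2g, 58 between Clec2d and Clec2i, and 103 between Clec2h and Clec2i. The probe sequences were not used here, so cross-reading between copies was not tested. Clec2g had 1 UMI and Clec2i 5 UMIs in the whole series.

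The libraries differed widely in depth and content. They held 106 to 5180 barcodes, 34758 to 245476 UMIs and a median of 26 to 528.5 UMIs per barcode, and haemoglobin genes took 0.0147% to 54.3% of the UMIs. Shared droplet barcodes put fish oil/pectin mice 2, 3 and 4 into a pool with mouse 4 of the corn oil/cellulose diet, and fish oil/pectin mouse 1 into another with mice 1, 2 and 3 of that diet. Within pools 189 droplet barcodes were shared and between pools 24, while 6 barcodes were identical in full between libraries. Fish oil/pectin mouse 4 stands apart for these genes, since it gave 238 of the 603 Clec2d, 74 of the 118 Clec2e and 301 of the 671 Clec2h UMIs. Many of the levels, shares and fold changes below are also given without this mouse.

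Epithelial barcodes were those with at least 1 UMI of Epcam, Krt8, Lgals4 or Cdh1, all genes of the gut epithelial layer. They were 1821 barcodes with 534455 UMIs, 21.2% of all barcodes and 46.0% of all UMIs, against 6767 other barcodes with 626377 UMIs. The rule was checked on genes it did not use, and 12 further epithelial genes summed to 10149 UMIs per 1000000 UMIs of the class (CPM) in epithelial and 2639 in other barcodes, higher in epithelial barcodes in 8 of 8 mice. Fibroblast markers ran the other way, at 283 and 1161 CPM, higher in other barcodes in 6 mice and in epithelial barcodes in 2. Smooth muscle markers had 473 and 1028 CPM, with the same mouse counts. Myeloid markers had 101 and 281 CPM, higher in other barcodes in 5 mice and in epithelial ones in 3. Adipocyte markers had 78.6 and 279 CPM, with 4 mice each way. Plasma and B cell markers were hardly separated, at 24.3 and 27.1 CPM, with 2 mice higher in other and 4 in epithelial barcodes. Red cell genes had 40312 CPM in epithelial and 417823 in other barcodes, higher in other barcodes in 8 of 8 mice. Because a barcode needs a marker UMI to qualify, shallow epithelial cells may remain among the other barcodes.

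Summed over all mice, the 3 genes took a larger part of the UMIs in epithelial than in other barcodes, though not in each diet. Red cell UMIs, far more common in other barcodes, are in these totals and lower the level of every other gene there. Ratios without them were not computed. Over all mice, 83.2% of Clec2h, 80.5% of Clec2e and 66.3% of Clec2d UMIs lay in epithelial barcodes, which held 46.0% of all UMIs. Without fish oil/pectin mouse 4 these shares were 70.5%, 52.3% and 47.9%, with 37.4% of all UMIs epithelial. The ratio of summed levels, epithelial over other, was 5.79 for Clec2h, 4.84 for Clec2e and 2.31 for Clec2d, and without that mouse 4.00, 1.83 and 1.54. Summed over fish oil/pectin mice alone the ratio was 7.95 for Clec2h, 10.1 for Clec2e and 4.72 for Clec2d, and over corn oil/cellulose mice alone 3.85, 0.907 and 1.17.

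Clec2h, the ligand of NKR-P1G, was higher in epithelial barcodes in 8 of 8 mice. In fish oil/pectin mice 1 to 4 the epithelial level was 1540, 681, 858 and 1697 CPM, against 598, 786, 335 and 872 in corn oil/cellulose mice 1 to 4. The other barcodes gave 132, 319, 79.0 and 156 in fish oil/pectin mice and 325, 68.3, 213 and 21.8 in corn oil/cellulose mice. No epithelial value of any mouse was below the highest value of the other barcodes.

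Clec2d, the ligand of NKR-P1B, was higher in epithelial barcodes in 6 of 8 mice. Its epithelial level was 880, 507, 450 and 1285 CPM in fish oil/pectin mice 1 to 4 and 398, 973, 208 and 521 in corn oil/cellulose mice 1 to 4. The other barcodes held 662, 196, 71.1 and 507 in fish oil/pectin mice and 583, 314, 213 and 218 in corn oil/cellulose mice. The classes overlapped, and in corn oil/cellulose mice 1 and 3 the other barcodes had the higher level.

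Clec2e had the fewest UMIs of the 3, with 85 in the epithelial barcodes of fish oil/pectin mice and 10 in those of corn oil/cellulose mice. Mice 1 to 4 on fish oil/pectin had 3, 10, 0 and 72 epithelial UMIs, and mice 1 to 4 on corn oil/cellulose had 3, 1, 0 and 6. That is 660, 175, 0 and 411 CPM on fish oil/pectin, against 99.6, 37.4, 0 and 39.0 on corn oil/cellulose. The zeros were 0 of 24462 UMIs in fish oil/pectin mouse 3, which allows up to 123 CPM, and 0 of 62631 in corn oil/cellulose mouse 3, which allows up to 47.9. In the other barcodes 9 UMIs were counted in fish oil/pectin mice and 14 in corn oil/cellulose mice.

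**Figure D1:**
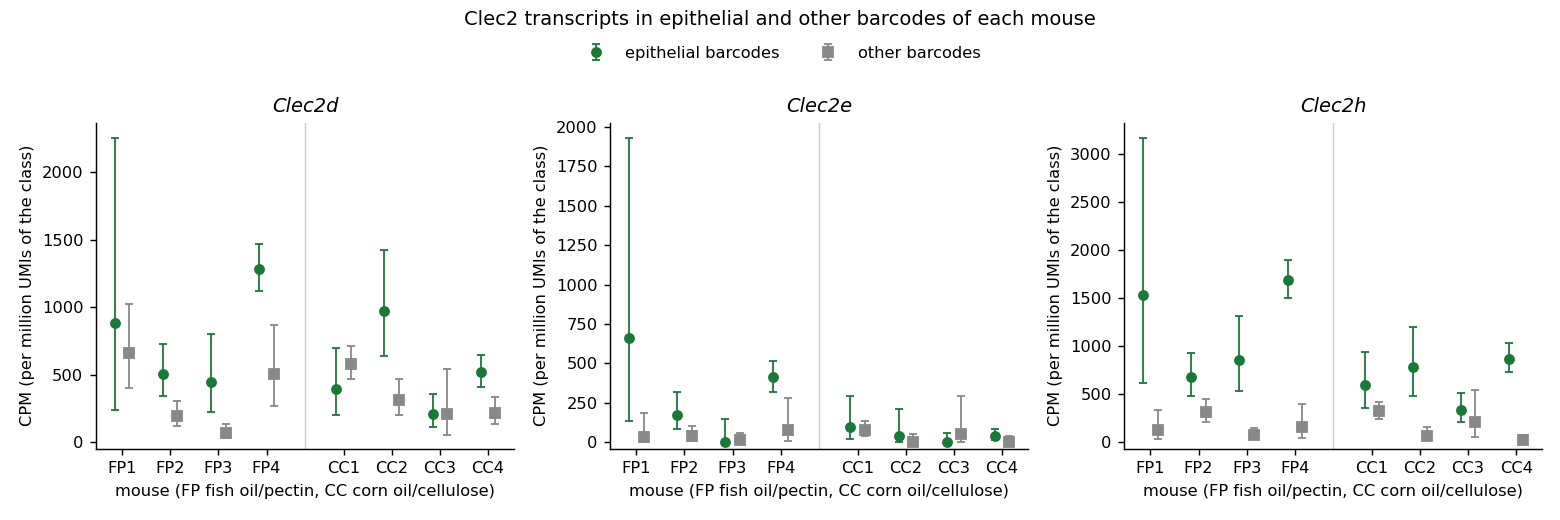
Level of each gene, in CPM of the class, in epithelial (green circles) and other (grey squares) barcodes of each mouse, with exact 95% Poisson intervals for counting error. Fish oil/pectin mice (FP1 to FP4) stand left of corn oil/cellulose mice (CC1 to CC4). Clec2h is higher in epithelial barcodes in 8 of 8 mice, and Clec2d and Clec2e in 6 of 8.

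Depth differs between the classes, so the share of barcodes with a UMI was also taken at an equal depth of 50 UMIs. This depth counts red cell UMIs too, so it does not even out their larger part in other barcodes. After thinning, 4.55% of epithelial barcodes (exact 95% interval 3.51% to 5.79%) and 1.20% of other barcodes (0.821% to 1.69%) had a Clec2h UMI. For Clec2d the shares were 3.45% (2.54% to 4.56%) and 1.57% (1.14% to 2.12%), and for Clec2e 0.734% (0.352% to 1.35%) and 0.150% (0.0408% to 0.383%). Unthinned, 14.0% of epithelial and 1.49% of other barcodes had a Clec2h UMI, 12.1% and 2.33% a Clec2d UMI, and 3.29% and 0.310% a Clec2e UMI. Thinning left out 458 epithelial and 4096 other barcodes that were too shallow. Without fish oil/pectin mouse 4 the thinned shares in epithelial and other barcodes were 4.09% and 1.18% for Clec2h, 2.85% and 1.57% for Clec2d, and 0.445% (0.145% to 1.04%) and 0.153% (0.0416% to 0.391%) for Clec2e, whose intervals then overlapped. These intervals cover counting error over barcodes of all mice, not the spread between mice.

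The other barcodes were then split by the marker list that led them, with at least 2 UMIs, a split added after the data had been seen. Clec2d had more UMIs than the other 2 genes in fibroblast-led, myeloid-led and adipocyte-led barcodes, though few in the last 2 of these classes. Over all other barcodes, with those that no list led, 158 had a Clec2d, 101 a Clec2h and 21 a Clec2e UMI. Myeloid-led barcodes had 14 Clec2d UMIs in 31 barcodes, or 1862 CPM (exact 95% Poisson interval 1018 to 3125), and fibroblast-led barcodes 44 UMIs in 130 barcodes, or 1493 CPM (1084 to 2004), from 7 mice. Adipocyte-led barcodes had 12 UMIs, or 1271 CPM (657 to 2220), absorptive-marker barcodes 918 (812 to 1034), goblet-marker barcodes 600 (488 to 729) and smooth muscle-led barcodes 566 (228 to 1167). The intervals of the myeloid-led, fibroblast-led and adipocyte-led levels overlapped one another, and those of the goblet-marker and smooth muscle-led levels did too. Single mice moved these levels. Without fish oil/pectin mouse 4 absorptive-marker barcodes had 590 Clec2d CPM (484 to 713) and goblet-marker barcodes 410 (305 to 541), and without corn oil/cellulose mouse 1 fibroblast-led barcodes had 1125 (728 to 1661), an interval that overlapped the 824 to 1051 of absorptive-marker barcodes without that same mouse.

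Clec2h and Clec2e were scarce in the same classes. Fibroblast-led barcodes held 1 UMI of each, and myeloid-led and adipocyte-led barcodes held 0 of each, in 7517 and 9444 UMIs. Haemoglobin-led barcodes, 1108 in number with 300038 UMIs, serve as a class that should lack all 3 genes. Haemoglobin genes made up at least 50% of the UMIs of each such barcode, which lowers the CPM of every other gene. They had 0 Clec2d UMIs, which allows up to 10.0 CPM, 2 of Clec2e (6.67 CPM) and 8 of Clec2h (26.7 CPM). Their median depth was 255 UMIs, against 257 in absorptive-marker barcodes, but with haemoglobin counted, so fewer UMIs were left for other genes. The levels are therefore not on a like footing with those of the other classes. Natural killer and T cells could not be examined, since lymphocyte markers led only 7 barcodes.

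**Figure D2:**
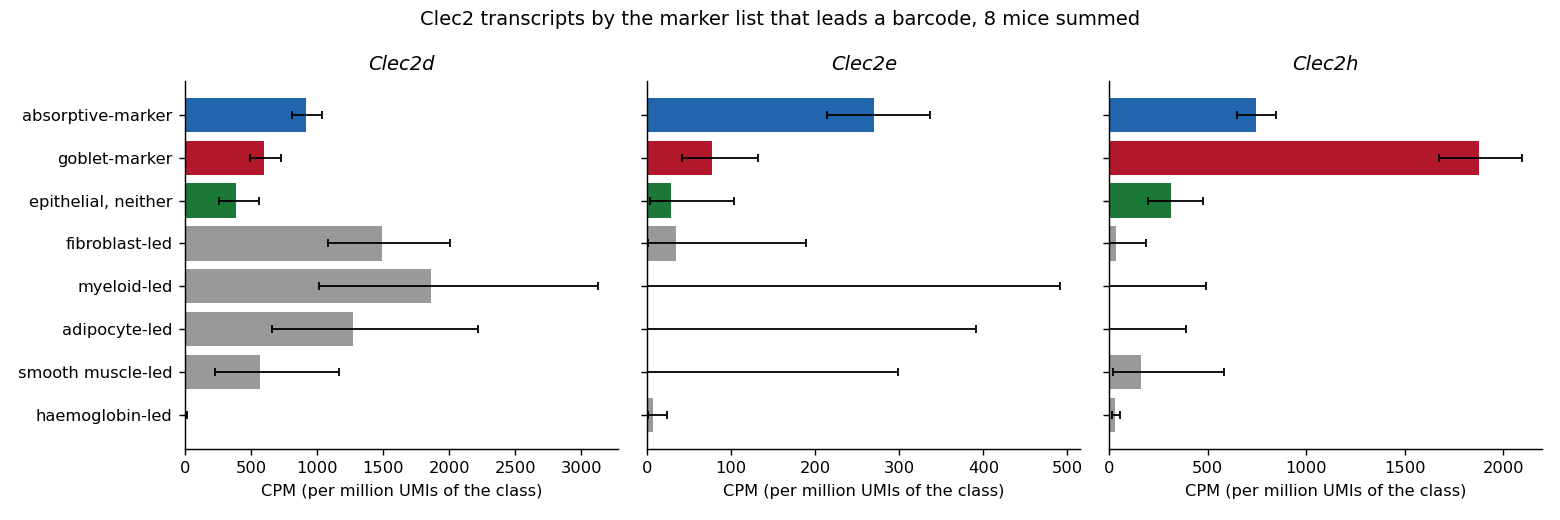
Level of each gene, in CPM of the class, with 8 mice summed and exact 95% Poisson intervals for counting error. Coloured bars are epithelial classes, and grey bars are other barcodes led by a marker list or with at least 50% haemoglobin UMIs (haemoglobin-led). Clec2d is present in fibroblast-led and myeloid-led barcodes, while among the classes drawn Clec2h and Clec2e bars are tall only in epithelial ones. Other barcodes that no marker list led are not drawn.

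Within the epithelium, barcodes were compared by lineage, a contrast that the choice of genes did not use. Absorptive-marker barcodes had more UMIs of 19 absorptive genes than of 16 goblet genes, and goblet-marker barcodes the reverse, which gave 742 and 519 barcodes, while 560 had no lead. Counts were summed per mouse and class and tested with edgeR with the mouse as a block. Of 374 genes tested, 30 passed an adjusted p of 0.05, or 8.02%, with 16 higher and 14 lower in absorptive-marker barcodes. With DESeq2 size factors the split was 34 higher and 13 lower, and with total UMIs alone 38 and 13, as these scalings moved the median log2 fold change of all genes to 0.28 and 0.31, against 0.01 with TMM. The split behaved as its lists require for Muc2, the main secreted mucin (log2 fold change, absorptive over goblet, -4.13), and for Slc26a3, the chloride/bicarbonate exchanger of surface colonocytes (2.02). Zg16, a goblet cell lectin, differed by -3.42, Car1, a carbonic anhydrase, by 0.99, and Aqp8, a water channel, by 1.78, and these marker genes are part of the lists.

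Clec2h was lower in absorptive-marker than in goblet-marker barcodes and was 1 of the 14 genes called in that direction, 3.74% of those tested. Its log2 fold change was -1.47 (SE 0.33), with an adjusted p of 0.000488 in edgeR's quasi-likelihood test over 8 mice. Summed over mice, it stood at 743 CPM (220 UMIs) in absorptive-marker and 1876 (316 UMIs) in goblet-marker barcodes. The mice did not all show this difference. In fish oil/pectin mice 1 to 4, absorptive-marker barcodes had 5, 19, 8 and 146 UMIs and goblet-marker barcodes 1, 15, 10 and 148. In corn oil/cellulose mice 1 to 4 the absorptive-marker counts were 6, 8, 14 and 14 and the goblet-marker counts 5, 12, 6 and 119.

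As levels, the absorptive-marker barcodes had 3266, 848, 867 and 1270 Clec2h CPM in fish oil/pectin mice 1 to 4, and 678, 422, 356 and 173 in corn oil/cellulose mice 1 to 4. The goblet-marker barcodes had 728, 658, 1746 and 3176 in fish oil/pectin mice, and 625, 3376, 331 and 1912 in corn oil/cellulose mice. The goblet level was the higher one in 4 of 8 mice, and in 3 of these the counting intervals were apart: fish oil/pectin mouse 4 and corn oil/cellulose mice 2 and 4. In no mouse were the intervals apart the other way. The change was -1.18 with DESeq2 size factors and -1.16 with total UMIs. The call was lost with no filter on low counts (-0.92, edgeR adjusted p = 0.664), without corn oil/cellulose mouse 4 (-0.99, edgeR adjusted p = 0.0726) and in the DESeq2 test (-1.20, adjusted p = 0.0922). It was kept when fish oil/pectin mouse 4 was left out (-1.45, edgeR adjusted p = 0.0350).

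At an equal depth of 50 UMIs, 3.16% of absorptive-marker barcodes (exact 95% interval 1.97% to 4.79%) and 8.61% of goblet-marker barcodes (6.10% to 11.7%) had a Clec2h UMI. Without fish oil/pectin mouse 4 these shares were 2.75% (1.51% to 4.57%) and 7.63% (5.09% to 10.9%). Within pools the log2 fold change, absorptive over goblet, was -0.74 in the pool with 3 corn oil/cellulose mice and -1.73 in the pool with 3 fish oil/pectin mice.

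Clec2d did not differ detectably between the lineages. The absorptive-over-goblet change was 0.16 on the log2 scale (SE 0.32, edgeR adjusted p = 0.861), with 272 UMIs in absorptive-marker and 101 in goblet-marker barcodes, and no mouse had counting intervals that were apart. Clec2e had 80 and 13 UMIs, too few to pass the filter on low counts. With no filter it differed by 1.64 on the same scale (SE 0.60, edgeR adjusted p = 0.478). It was higher in absorptive-marker barcodes in 5 of the 6 mice with a UMI, but 63 of the 80 UMIs came from fish oil/pectin mouse 4, where the level was 548 CPM in absorptive-marker and 193 in goblet-marker barcodes and the intervals were apart.

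**Figure D3:**
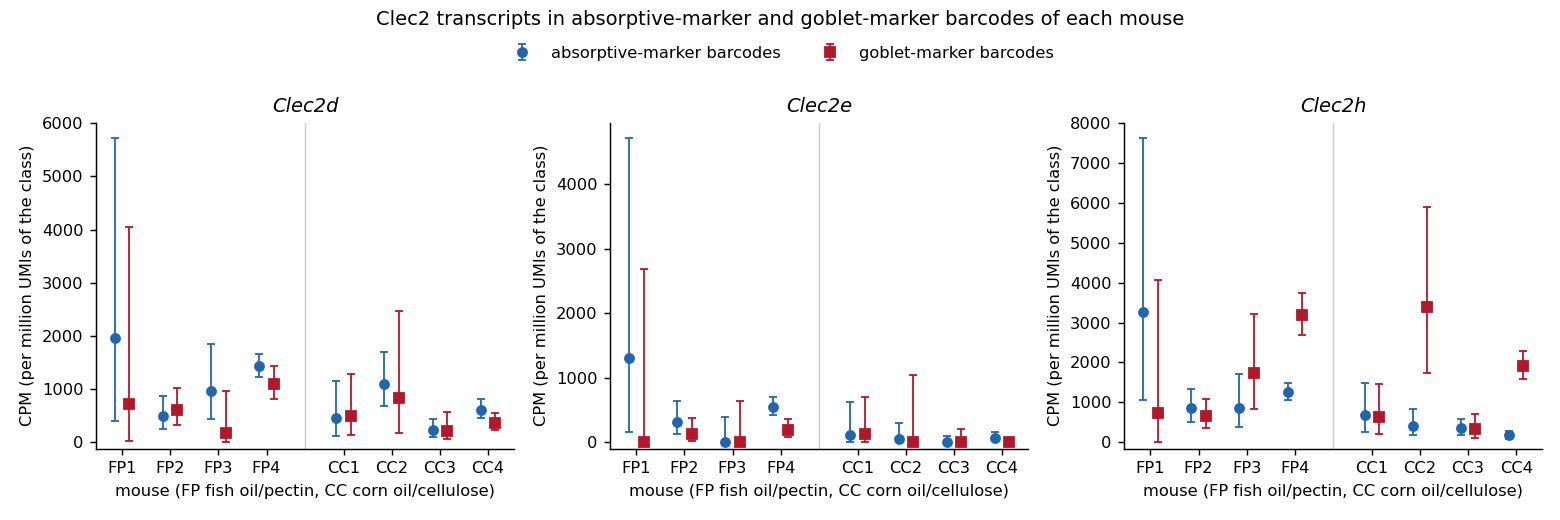
Level of each gene, in CPM of the class, in absorptive-marker (blue circles) and goblet-marker (red squares) epithelial barcodes of each mouse, with exact 95% Poisson intervals for counting error. Clec2h is higher in goblet-marker barcodes with intervals apart in FP4, CC2 and CC4. Its absorptive-marker levels are 848 or more in fish oil/pectin mice (FP) and 678 or less in corn oil/cellulose mice (CC).

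The genes shared some epithelial barcodes, counted here with no correction for depth or mouse. Epithelial barcodes with Clec2d had a median depth of 526 UMIs, against 131 in all epithelial barcodes. Of all 1821 epithelial barcodes, 221 had Clec2d and 255 had Clec2h. In fish oil/pectin mouse 4, 107 and 98 of 239 did, and 47 had both. Of its 42 with Clec2e, 24 had Clec2d and 20 had Clec2h. Whether sharing exceeded what depth and mouse give was not tested. Of 60 epithelial barcodes with a Clec2e UMI, 31 (51.7%) also had Clec2d and 28 (46.7%) also had Clec2h. The 31 were 14.0% of the 221 barcodes with Clec2d, and the 28 were 10.98% of the 255 with Clec2h. Clec2d and Clec2h shared 75 barcodes, 33.9% of those with Clec2d and 29.4% of those with Clec2h. Fish oil/pectin mouse 4 gave 42 of the 60 barcodes with Clec2e. Without it, 7 and 8 of 18 barcodes with Clec2e also had Clec2d and Clec2h, and Clec2d and Clec2h shared 28 barcodes, 24.6% of the 114 with Clec2d and 17.8% of the 157 with Clec2h.

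Diet was examined for each gene in all barcodes, in epithelial barcodes and in absorptive-marker barcodes. In edgeR's quasi-likelihood test 0 of 4471 genes passed in all barcodes (0% called, 108 at an unadjusted p under 0.05), and DESeq2 also called 0, with 139 at an unadjusted p under 0.05. In epithelial barcodes 0 of 1513 genes passed (0% called, 85 at an unadjusted p under 0.05; DESeq2 0 and 50), with 39 called once fish oil/pectin mouse 4 was dropped. In absorptive-marker barcodes, a fit added after the data had been seen, 0 of 584 genes passed in edgeR (0% called, 29 at an unadjusted p under 0.05), with 21 called once the same mouse was dropped. The log2 fold changes that follow are fish oil/pectin over corn oil/cellulose and describe these mice.

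Clec2e had the largest log2 fold change by diet of the 3 genes in all barcodes, with values that overlapped between the diets. It stood at 115, 90.7, 13.2 and 369 CPM in fish oil/pectin mice 1 to 4, and at 82.9, 10.0, 12.3 and 24.4 in corn oil/cellulose mice 1 to 4. The means were 147 ± 154 and 32.4 ± 34.2 (SD, n = 4 each), and the fish oil/pectin mean without mouse 4 was 73.0 ± 53.2 (n = 3). The diets overlapped, because fish oil/pectin mouse 3 was below corn oil/cellulose mice 1 and 4. The log2 fold change was 1.97 (SE 0.62) in all barcodes, 2.58 (SE 0.80) in epithelial barcodes with no filter on low counts, and within pools 1.33 and 2.68 in all barcodes. Without fish oil/pectin mouse 4 the log2 fold change in all barcodes was 1.44 (SE 0.68).

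Clec2h and Clec2d had smaller differences. In all barcodes Clec2h averaged 619 ± 596 CPM in fish oil/pectin mice and 372 ± 129 in corn oil/cellulose mice (SD, n = 4 each), and without mouse 4 the fish oil/pectin mean was 325 ± 124 (n = 3), below that of corn oil/cellulose mice. In epithelial barcodes the fish oil/pectin mean without mouse 4 was 1027 ± 453 (SD, n = 3), above the 648 ± 238 of corn oil/cellulose mice (n = 4). Clec2d averaged 580 ± 466 in fish oil/pectin mice and 415 ± 150 in corn oil/cellulose mice (SD, n = 4 each), and 378 ± 285 in fish oil/pectin mice without mouse 4 (n = 3). The log2 fold changes in all barcodes were 0.84 (SE 0.57) for Clec2h and 0.47 (SE 0.57) for Clec2d, and in epithelial barcodes 0.88 (SE 0.52) and 0.68 (SE 0.52). Without fish oil/pectin mouse 4 they were 0.59 (SE 0.60) and 0.29 (SE 0.61) in all barcodes. In epithelial barcodes they were then 0.84 (SE 0.54) and 0.53 (SE 0.54). The TMM-scaled Clec2h change in all barcodes thus stayed positive without that mouse, unlike the difference of CPM means. Within pools Clec2h differed by -0.03 and 0.56 in all barcodes, and Clec2d by 0.64 and 0.53.

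In the absorptive-marker barcodes the diets did not overlap for Clec2h. The lowest fish oil/pectin mouse had 848 CPM and the highest corn oil/cellulose mouse 678, with means of 1563 ± 1152 and 407 ± 209 (SD, n = 4 each). Fish oil/pectin mouse 1, at 3266 CPM, rested on 5 UMIs, and without it the fish oil/pectin mean was 995 ± 238 (n = 3). The log2 fold change was 1.68 (SE 0.60) and lay between 1.25 (without corn oil/cellulose mouse 4) and 2.05 (without mouse 1 of that diet) when single mice were left out. Of 3399 genes with at least 20 UMIs in this class, 12 (0.353%) had all fish oil/pectin mice above all corn oil/cellulose mice, and 53 (1.56%) had all below. In goblet-marker barcodes the Clec2h means were 1577 ± 1177 in fish oil/pectin mice and 1561 ± 1391 in corn oil/cellulose mice (SD, n = 4 each).

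The difference between the lineages was set against diet in an interaction fit, also added after the data had been seen. For Clec2h the absorptive-over-goblet log2 fold change was -0.82 (SE 0.44) in fish oil/pectin mice and -2.18 (SE 0.47) in corn oil/cellulose mice. The difference was 1.35 (SE 0.65), given as a description because the choice of genes used diet, and edgeR called 0 of 374 genes in this fit (0%). For Clec2d the difference was -0.03 (SE 0.66), and Clec2e was not tested in this fit.

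A level in CPM over a whole library moves with its epithelial share, which was 13.1%, 37.1%, 16.2% and 87.2% of UMIs in fish oil/pectin mice 1 to 4 and 15.6%, 26.8%, 76.9% and 62.6% in corn oil/cellulose mice 1 to 4. The genes were therefore also set against the summed UMIs of Epcam, Krt8, Lgals4 and Cdh1. Both sums ran over all barcodes of a mouse, so Clec2 UMIs outside epithelial barcodes are counted too, and the ratio also moves with the marker genes. Fewer epithelial cells and less RNA per cell cannot be told apart in either measure.

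Per 1000 such marker UMIs, Clec2h had 216, 101, 135 and 225 UMIs in fish oil/pectin mice 1 to 4, and 99.0, 86.7, 36.9 and 87.5 in corn oil/cellulose mice 1 to 4. The diets did not overlap on this measure, narrowly, with 100.6 as the lowest fish oil/pectin value. They did overlap when a wider epithelial list was the denominator, at 40.6 in fish oil/pectin mouse 2 and 41.4 in corn oil/cellulose mouse 2. Of 7386 genes with at least 20 UMIs, 57 (0.772%) had all fish oil/pectin mice above all corn oil/cellulose mice on this measure. Clec2e had 78.4, 20.1, 8.73 and 55.4 UMIs in fish oil/pectin mice and 22.3, 3.33, 1.48 and 3.86 in corn oil/cellulose mice. Its diets overlapped through corn oil/cellulose mouse 1. Clec2d had 471, 69.0, 87.3 and 178 in fish oil/pectin mice and 149, 163, 25.1 and 64.3 in corn oil/cellulose mice, with wide overlap. These are not epithelial levels. Of the Clec2d UMIs, 4 of 24 were in epithelial barcodes in fish oil/pectin mouse 1 and 12 of 107 in corn oil/cellulose mouse 1, against 225 of 238 in fish oil/pectin mouse 4. All ratios of fish oil/pectin mouse 1 rested on 51 marker UMIs.

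**Figure D4:**
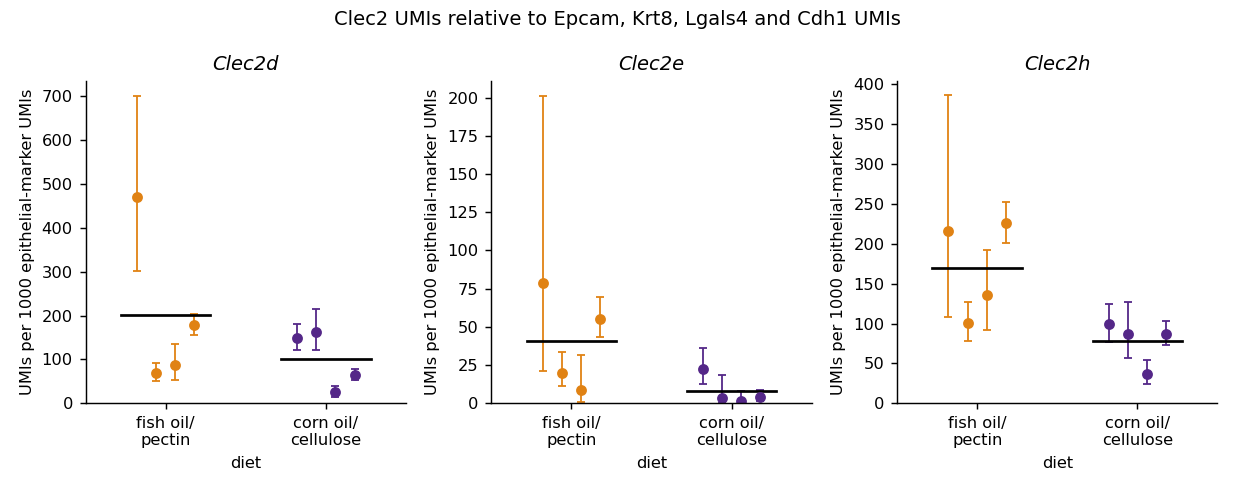
UMIs of each gene per 1000 summed UMIs of Epcam, Krt8, Lgals4 and Cdh1, both over all barcodes, in 4 fish oil/pectin and 4 corn oil/cellulose mice. Points are mice 1 to 4 from left to right with exact 95% Poisson intervals of the numerator, and black lines are means. The Clec2h points of the diets do not overlap on these 4 markers (they do with a wider epithelial list), while those of Clec2d and Clec2e do.

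The receptors of these ligands were almost undetected. The 5 NKR-P1 genes in the files had 19 UMIs in all, 2 in epithelial and 17 in other barcodes. Klrb1a, an activating member of the NKR-P1 family, had 9, Klrb1, which encodes NKR-P1G, had 3, and Klrb1b, which encodes NKR-P1B, had 2. The other Clec2 genes in the files, Clec2f, Clec2g, Clec2i and Clec2l, had 13 UMIs together.

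Among 20 other epithelial ligand genes of lymphocyte receptors in the files, 13 reached 10 UMIs. Few passed the filter on low counts, 7 by diet in all barcodes, 4 by diet in epithelial barcodes and 1 by lineage, and 0 of these were called. By diet in all barcodes, the 7 had a median log2 fold change of 0.03 against -0.03 over all genes tested. Btnl4, a butyrophilin-like gene of gut epithelium, had 212 UMIs, 80.2% of them epithelial, and differed by 0.03 (SE 0.45). Btnl6, of the same family, had 151 UMIs and differed by -0.09 (SE 0.47). Nectin2, a ligand of the receptor DNAM-1, had 150 UMIs and differed by 0.19 (SE 0.53), and the class I gene H2-Q2 had 121 and differed by 0.17 (SE 0.56). Pvr, a ligand of DNAM-1 and TIGIT, had 39 UMIs and differed by -1.57 (SE 0.65). H2-Q1 had 44 UMIs and differed by -0.02 (SE 0.70), and Icosl, the ligand of ICOS, had 37 and differed by 0.27 (SE 0.76). The other 6 that reached 10 UMIs, Btnl1 with 26, Cd274 with 21, H2-T3 with 19, Raet1e with 18, Btnl2 with 16 and Tnfrsf14 with 12, did not pass the filter on low counts in this fit.

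The genes most like each Clec2 gene were sought among 7385 others by Pearson correlation of log2(CPM + 10) over 16 sums, the epithelial and the other barcodes of each mouse. The correlations describe sums that share libraries and their depth. Clec2h was closest to Cdc42se1 (0.91), Eif6, Pls1, Dcaf15 and Pde9a. Clec2d was closest to Srsf7 (0.90), Nsd1, Safb2, Uap1 and Ccnl2, and Clec2e to Rbm3 (0.83), Npc2, Pafah1b2, Mapk8 and Capzb. Among themselves the correlation was 0.65 for Clec2d with Clec2h, 0.63 for Clec2e with Clec2h and 0.59 for Clec2d with Clec2e, so that none of the 3 was among the 5 genes closest to another.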

How the data were processed

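The authors deposited raw UMI counts per gene and cell barcode, made with Cell Ranger 8.0.0 per the submitters' processing notes, which name mm10 and GRCm39. The role of each build and any later barcode filter are not given in the sources used here. The files hold gene IDs without coordinates, and positions come from the GENCODE M21 annotation of GRCm38, matched on those IDs. All barcodes were used, no doublet caller was run, and depth was 34758 to 245476 UMIs per mouse. The genes and all lists were chosen with earlier results of these data known.

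Counts were summed per mouse, or per mouse and class for mice with at least 1000 UMIs in each class, and tested by edgeR's robust quasi-likelihood test (version 4.0.16, R 4.3.3). Low counts were removed by filterByExpr at a minimum of 5, TMM scaled the sums, and p-values were Benjamini-Hochberg adjusted over all genes tested. The fits were tested on simulated counts in which all mice shared a common expression profile. That setting does not cover differences between libraries as wide as those seen here. DESeq2 1.42.0 and limma 3.58.1 were alternatives, with other scalings, filters, barcode rules and left-out mice. The labels call the samples biological replicates. No library was a copy of another, since the lowest chi-square per degree of freedom was 3.40 among 28 pairs. Poisson and binomial intervals are exact at 95% and, like the limit of 3 counts behind a 0, cover counting error only. By a rule set with the lists, the text names the 3 genes, genes of the Clec2, NKR-P1 and ligand lists by their total UMIs with values for those of at least 10, 5 split markers and the 5 most correlated genes. Most list genes under 10 UMIs are given as sums, and lymphocyte markers only by the barcodes they led. One gene of the lymphocyte list is not reported here.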

Additional observations from a re-analysis of the deposited data

Results flagged for a closer look

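Among 36 sets of 4 mice that were examined, 2 values stood far from the other 3 by Dixon's criterion for groups of 4. The sets share mice and barcodes, so a rate expected by chance cannot be given. Corn oil/cellulose mouse 1 had 22.3 Clec2e UMIs per 1000 epithelial-marker UMIs, while the other mice of that diet had 1.48 to 3.86. The same mouse had 125 Clec2e CPM in goblet-marker barcodes, which was 1 UMI, and the other 3 mice of that diet had 0. Its library held 5180 barcodes with a median of 26 UMIs, the most barcodes and the lowest depth of the series, and the part of that in these values was not tested.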

How the results depend on the processing

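Of 407 values recomputed under other settings for 37 results, 365 kept their direction and side of the threshold or moved by less than the spread between mice. The lower level of Clec2h in absorptive-marker than in goblet-marker barcodes lost its call with no filter on low counts (log2 fold change -0.92) and in the DESeq2 test (-1.20), and ranged from -1.62 to -0.99 when single mice were left out, with the call lost without corn oil/cellulose mouse 4. The cause was not tested. Genes called between these classes numbered 47 with DESeq2 size factors, 51 with total UMIs, 63 with no filter and 86 over all barcodes, and 18 to 47 without single mice, against 30 in all mice. Leaving out fish oil/pectin mouse 4 gave the 18 and fish oil/pectin mouse 2 the 47.

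By diet, no filter gave 4 calls in all barcodes, 5 in epithelial barcodes and 1 in absorptive-marker barcodes. In epithelial barcodes 1 gene was called with DESeq2 size factors, 1 with total UMIs, 3 with barcodes of at least 50 UMIs, 5 with limma voom quality weights and 1 with at least 2 marker UMIs. Leaving out single mice gave 0 to 1 calls in all barcodes (1 when fish oil/pectin mouse 4 was dropped) and 0 to 1 in the interaction fit (1 when corn oil/cellulose mouse 3 was dropped). The range was 0 to 39 in epithelial barcodes, with 1, 4 and 39 when fish oil/pectin mice 2, 3 and 4 were dropped and 24 and 8 for corn oil/cellulose mice 1 and 2. It was 0 to 21 in absorptive-marker barcodes, with 1 and 21 for fish oil/pectin mice 3 and 4 and 3 for corn oil/cellulose mouse 1. Total UMIs moved the median log2 fold change by diet in all barcodes to -0.21, from -0.03. Replicate numbers did not pair the mice, as correlations of deviations between same-numbered mice were 0.19, -0.20, -0.08 and 0.26, and 0 of 4 correlated best with its own number. With the replicate block 0 genes were called in all and 4 in epithelial barcodes.

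Clec2d in the interaction fit changed sign, between -0.32 and 0.50, reaching 0.50 when fish oil/pectin mouse 2 was left out, and 0.06 and 0.40 when mice 2 and 4 of the corn oil/cellulose diet were. Thinning to 50 UMIs lowered the mean share of epithelial barcodes with a Clec2h UMI to 4.91%, from 16.6%, as fewer UMIs are read per barcode. A wider epithelial list as denominator gave Clec2h means of 74.3 in fish oil/pectin mice and 34.5 in corn oil/cellulose mice, since it counts more marker UMIs, and the diets then overlapped (40.6 in fish oil/pectin mouse 2, 41.4 in corn oil/cellulose mouse 2). Clec2e did not pass the filter on low counts over all mice in the epithelial, absorptive-marker and lineage fits, and had a value under 8 of 20, 6 of 10 and 1 of 17 settings. It was called by diet under 5 of these, with epithelial log2 fold changes of 2.74 (at least 50 UMIs), 2.95 (fish oil/pectin mouse 3 dropped) and 3.14 (corn oil/cellulose mouse 1 dropped), and absorptive-marker ones of 3.15 and 3.09 with the same mice dropped. In the same order, 3 of 1482, 4 of 2687 and 24 of 2560 genes were called in the epithelial fits. In the absorptive-marker fits 1 of 839 and 3 of 798 were called. For Clec2e the dropped mice were the lowest on fish oil/pectin and the highest on corn oil/cellulose. With either dropped, the gene passed the filter through fish oil/pectin mice, where it was high. The genes were also chosen with diet in view, so these calls are a description and no test of diet.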
